A study of Mus musculus with 3 samples.

Results

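The interferon-inducible GTPases described here are 10 genes, 7 guanylate-binding proteins (*Gbp2*, *Gbp2b*, *Gbp3*, *Gbp4*, *Gbp5*, *Gbp6* and *Gbp7*) and 3 immunity-related GTPases (*Igtp*, *Irgm1* and *Iigp1*), of the 32285 genes in the files. They were selected on earlier results of these same data by gene symbol, and *Gbp2b* because it differs between MRL/lpr and control mice, so that difference is a description and was not tested. The values are counts of unique molecular identifiers (UMIs), each of which marks 1 captured RNA molecule, from single glomerular cells of mouse kidneys. There were 3 libraries, 1 from a blank control group of mice, 1 from MRL/lpr mice with lupus nephritis and 1 from MRL/lpr mice given mesenchymal stem cells of human umbilical cord (hUC-MSCs). MRL/lpr mice carry the lpr mutation of *Fas* and develop a lupus-like disease. The study's methods describe female MRL/lpr and MRL/MpJ mice, entry into the model group at about 16 weeks, and an intravenous dose of 800000 hUC-MSCs. Its figure legends give day 21 for the glomerular cells of MRL/lpr mice with or without hUC-MSCs. The labels do not name the strain of the blank control mice or say how many mice went into a library. Strain, disease and library preparation therefore cannot be told apart between the control and MRL/lpr libraries, and treatment and library preparation cannot be told apart between the 2 MRL/lpr libraries. With 1 library per condition no difference between conditions could be tested. All intervals are exact 95% intervals that cover counting error only.

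Both families are GTPases that interferon gamma induces strongly, and several respond to type I interferons as well. Guanylate-binding proteins assemble on pathogen vacuoles and bacterial surfaces and promote inflammasome signalling. Among the immunity-related GTPases, Iigp1 (Irga6) is an effector, while Igtp (Irgm3) and Irgm1 belong to the regulatory group that keeps effectors off the cell's own membranes. In glomeruli, endothelial and mesangial cells both carry interferon gamma receptors, and interferon signalling is a known feature of lupus nephritis.

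In GENCODE M21 (GRCm38, the same sequence as mm10, the build in the submitters' processing notes) 5 members lie side by side on chromosome 3, from *Gbp5* (142493978 to 142522344) through *Gbp7* (142530342 to 142550149), *Gbp3* (142560026 to 142573209) and *Gbp2b* (142594847 to 142619179) to *Gbp2* (142620602 to 142638008), all on the plus strand. *Gbp4* (105115767 to 105139586) and *Gbp6* (105270702 to 105293698) lie on the minus strand of chromosome 5. *Irgm1* (48861968 to 48871683, minus strand) and *Igtp* (58199556 to 58207591, plus strand) lie on chromosome 11, and *Iigp1* on a further chromosome. All 10 are protein-coding. Because members are related in sequence, 90-base windows of the last 500 bases of their protein-coding transcripts were looked up in all other transcripts. No window of *Gbp2b*, *Gbp2*, *Gbp5*, *Gbp7*, *Igtp*, *Irgm1* or *Iigp1* occurred in another gene. For *Gbp6* 65.5% of the windows occurred also in *Gbp10* or *Gm43302*, for *Gbp4* 8.22% in *Gbp9*, *Gbp11* or *Gbp6*, and for *Gbp3* 0.450% in *Gbp7*. Values of *Gbp6* are therefore uncertain, since its reads can be shared with near-identical copies. Those of *Gbp10*, named below, are uncertain as well, and its own windows were not looked up.

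Sequences upstream of the transcription start were taken from RefSeq (GRCm38.p6) for 7 of the 10 members, while *Gbp4*, *Gbp6* and *Iigp1* are named only. They are shown because the 7 genes share an interferon-stimulated response element (ISRE) core although, as described below, 1 of them was nearly uncounted in both MRL/lpr libraries. The core was searched as GAAANNGAAA on both strands in the 250 bases before the start. It was found for 7 of 7 members with a sequence, and in 2.98% of all 32851 promoters. *Gbp3* has 2 entries, of which the upstream one holds the core. The windows of 60 bases, each on the strand of its gene, have the core in capitals, and where 2 cores overlap the capitals mark both. They come from the reference strain and not from these mice.
Gbp2b, chr3:142594685-142594744: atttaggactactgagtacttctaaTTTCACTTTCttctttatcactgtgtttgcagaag
Gbp2, chr3:142620579-142620638: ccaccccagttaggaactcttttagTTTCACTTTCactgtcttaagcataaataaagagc
Gbp3, chr3:142559980-142560039: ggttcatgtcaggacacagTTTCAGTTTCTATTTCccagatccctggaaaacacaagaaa
Gbp7, chr3:142530258-142530317: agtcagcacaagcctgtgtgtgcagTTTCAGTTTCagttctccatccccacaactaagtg
Gbp5, chr3:142496744-142496803: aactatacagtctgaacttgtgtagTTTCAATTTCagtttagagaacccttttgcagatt
Irgm1, chr11:48871421-48871480: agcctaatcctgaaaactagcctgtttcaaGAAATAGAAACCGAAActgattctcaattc
Igtp, chr11:58199496-58199555: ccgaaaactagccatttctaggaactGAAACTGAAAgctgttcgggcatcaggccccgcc

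*Gbp2b* and its neighbour *Gbp2* hold the same 10 letters in capitals. The core began 137 bases before the start of *Gbp2b* and 59 before that of *Gbp2*, against 165 for *Gbp5*, 53 for *Gbp7*, 39 for *Gbp3*, 34 for *Igtp* and 24 for *Irgm1*, counting the match nearest to the start. These starts are those of the RefSeq entries and differ from the GENCODE bounds given above. By those bounds the cores of *Gbp5*, *Gbp2* and *Irgm1* lie within the gene, so the distances depend on the start chosen. The whole window before the start of *Gbp2b* (chr3:142594597-142594846, plus strand) is given because this gene differs most between the libraries.
Gbp2b, 250 bases before the start: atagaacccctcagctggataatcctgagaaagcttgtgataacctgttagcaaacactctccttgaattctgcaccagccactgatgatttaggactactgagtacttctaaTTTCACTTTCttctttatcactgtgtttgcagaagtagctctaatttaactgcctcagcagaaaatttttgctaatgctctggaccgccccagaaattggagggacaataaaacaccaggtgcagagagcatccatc
A second core, the gamma-activated site searched as TTCNNNGAA (a palindrome, so both strands give the same matches), was found upstream of *Gbp5*, *Gbp7* and *Igtp*, 3 of the 7 members with a sequence, and in 7.02% of all promoters. A match is a description of letters and says nothing of binding in these cells.

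The libraries held 94903163 UMIs (control), 103319588 (MRL/lpr) and 90812138 (MRL/lpr + hUC-MSCs). Barcodes with at least 1000 UMIs and at most 10% mitochondrial UMIs were taken as cells, which gave 11018, 14109 and 16586, with a median of 5069, 3716 and 2727 UMIs. The study's methods put the captured cells at approximately 8000, without a library. Between 35 and 61 barcodes were shared by any 2 libraries. Cells were sorted into 11 classes by marker genes, and 1087, 2825 and 4382 cells of control, MRL/lpr and treated mice met no class, while 181, 560 and 777 met more than 1 and were left out. Every class used has at least 50 cells in the library and at least 5 of its markers in at least 10% of its cells. No class had a marker of another class among its 10 leading genes by fold. Since barcodes past another class were left out, this was largely set in advance and says little of purity. None of the 8 endothelial markers was among the leading 10 of the endothelial cells in any library. Nor was any of the 8 proximal tubule markers among those of the proximal tubule cells in MRL/lpr mice. The glomerular classes were endothelial cells (5047, 3370 and 4655 cells), mesangial cells (1203, 2189 and 2344) and podocytes (2524, 962 and 203). Levels are UMIs per 1000000 UMIs of a class (CPM). Free RNA was read from barcodes with 1 to 100 UMIs, here called empty droplets.

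Single members differed in the class where they were highest, and in endothelial and mesangial cells their sum is mostly *Iigp1*. Summed over the 10 genes, endothelial cells had 3510 CPM in control, 2627 in MRL/lpr and 1650 in treated mice, mesangial cells 2480, 1617 and 1610, and podocytes 363, 307 and 312. Mononuclear phagocytes had 742, 294 and 260 CPM, the first from only 63 cells. In the plot of levels by class the 2 brightest stretches are the *Iigp1* row over endothelial and mesangial cells, and most of the darkest fields are those of *Gbp2b* in the MRL/lpr libraries.

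**Figure D1:**
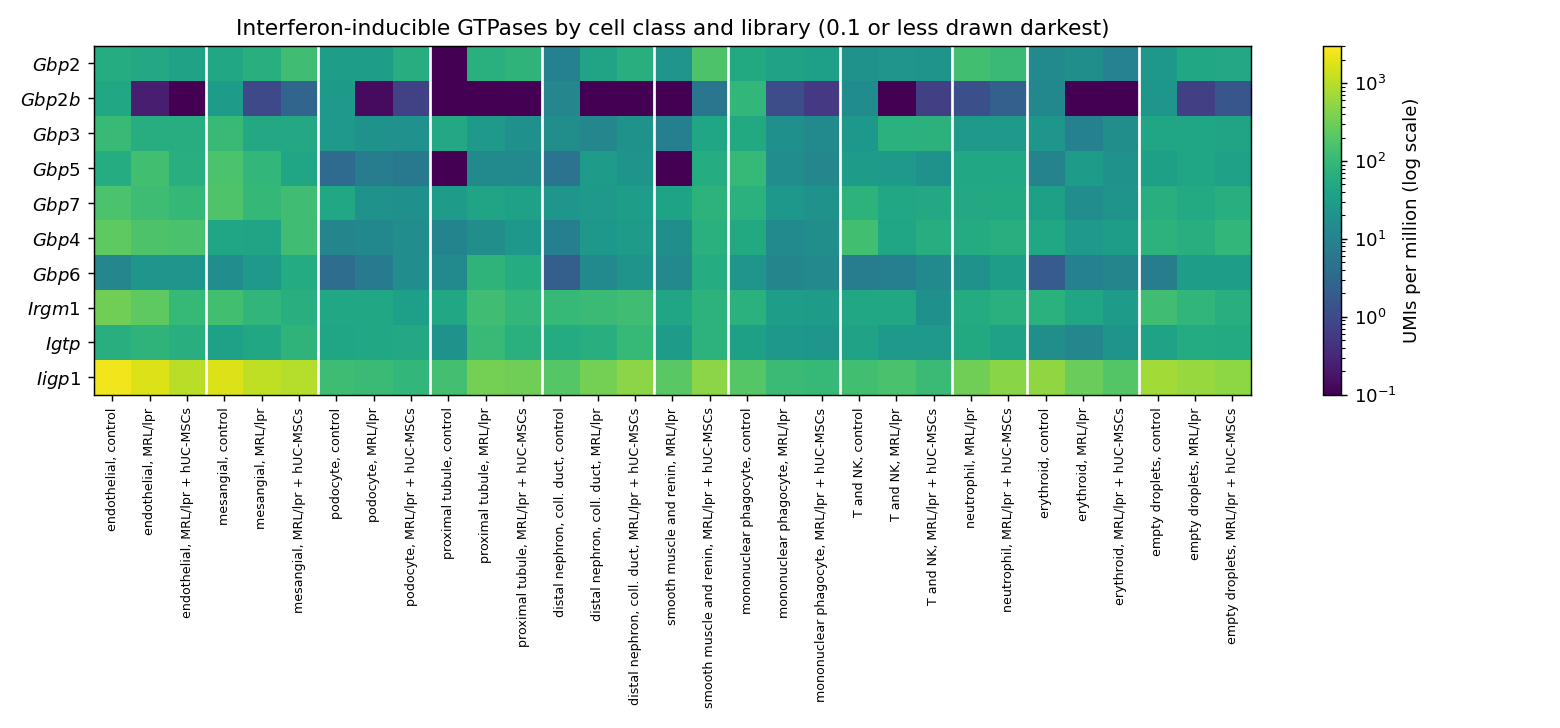
Level of each of the 10 genes (rows) in each cell class and library with at least 50 cells, and in empty droplets (columns), as CPM on a log colour scale. *Iigp1* reached 2443 CPM in control endothelial cells, while *Gbp2b* was at or below 5.63 in every class of both MRL/lpr libraries.

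*Iigp1*, an effector that damages pathogen vacuoles, made up most of the members' UMIs over all cells of each library. It held 33.3%, 37.3% and 29.2% of them in podocytes of control, MRL/lpr and treated mice, and 26.6%, 39.1% and 38.1% in mononuclear phagocytes. Of the members' UMIs in endothelial cells it held 69.6% in control, 66.7% in MRL/lpr and 63.5% in treated mice, a comparison of UMIs, which count molecules and were not divided by gene length. Its level was 2443 CPM (2424 to 2462) in control endothelial cells, 1751 (1731 to 1772) in MRL/lpr and 1049 (1034 to 1063) in treated mice. Mesangial cells followed in each library with 1731, 1111 and 934 CPM. The level in endothelial cells was above that in mesangial cells in all 3 libraries, by 0.50 (0.48 to 0.52), 0.66 (0.63 to 0.69) and 0.17 (0.14 to 0.20) on the log2 scale. Podocytes had 121, 115 and 91.1 CPM, below the 721, 605 and 524 CPM of the empty droplets.

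*Irgm1*, a regulator that protects host membranes and is linked to autophagy, was the second most counted member in control mice. Endothelial cells had 327 CPM (320 to 334) in control, 234 (226 to 241) in MRL/lpr and 98.3 (94.0 to 103) in treated mice. It was 2.44-fold higher in endothelial than in mesangial cells in control and 2.66-fold in MRL/lpr mice, but 1.49-fold in treated mice. In treated mice the distal nephron and collecting duct had the highest level, 125 CPM (103 to 151), 0.35 (0.06 to 0.63) above endothelial cells on the log2 scale.

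*Igtp*, a regulator of the same group found on the endoplasmic reticulum, was spread more evenly over the 3 glomerular classes than *Iigp1* or *Irgm1*. In control mice it was 63.0 CPM in endothelial cells, 35.9 in mesangial cells and 43.5 in podocytes. In MRL/lpr mice the proximal tubule was highest, with 106 CPM (96.4 to 117) from 666 cells, above endothelial cells by 0.37 (0.21 to 0.53) on the log2 scale.

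*Gbp4*, a guanylate-binding protein of the chromosome 5 group, had the highest ratio of endothelial to mesangial cells in control and MRL/lpr mice. It was 5.30-fold higher there than in mesangial cells in control and 4.17-fold higher in MRL/lpr mice. In treated mice this difference was 1.25-fold, since mesangial cells had 126 CPM (120 to 131) against 41.2 (37.8 to 44.7) in MRL/lpr mice. *Gbp6*, the other member of that group, was low in endothelial cells, with 11.9, 22.7 and 22.1 CPM. In MRL/lpr mice it was highest in the proximal tubule, with 81.1 CPM (72.5 to 90.3), above mesangial cells by 1.70 (1.48 to 1.92) on the log2 scale.

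The chromosome 3 members differed in the class where they were highest. *Gbp7* was high in both classes, with 161, 124 and 94.3 CPM in endothelial and 178, 94.5 and 127 CPM in mesangial cells. *Gbp3* did not separate endothelial from mesangial cells in control mice (103 and 106 CPM, log2 ratio -0.04, interval -0.12 to 0.05), and in MRL/lpr mice T and NK cells had 73.0 CPM (61.6 to 86.0), not set apart from the 61.4 of endothelial cells. *Gbp5*, known as an activator of the NLRP3 inflammasome, was higher in mesangial than in endothelial cells in control mice (159 against 58.9 CPM) and lower there in MRL/lpr mice (93.8 against 131 CPM). *Gbp2* was highest in neutrophils of MRL/lpr mice, 133 CPM (109 to 161), and in smooth muscle and renin cells of treated mice, 169 CPM (129 to 217, 70 cells).

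By the median share used here, most members lay nearer in podocytes than in the other glomerular classes to what free RNA gives. The share of free RNA in a class, read as the median ratio of the markers of the other classes to their level in empty droplets, was 5.67%, 12.4% and 10.8% in endothelial cells, 4.61%, 12.3% and 13.9% in mesangial cells and 3.35%, 9.56% and 12.4% in podocytes of control, MRL/lpr and treated mice. Apart from *Gbp2b*, members in endothelial and mesangial cells were 5.14 to 98.7 times what that share would give. As the share is a median, some marker sets lay above it and others below. Endothelial markers stood in mesangial cells at 0.572, 0.811 and 0.535 of their level in empty droplets. Mesangial markers stood in endothelial cells at 0.191, 0.444 and 0.357. Multiples taken at these ratios would be smaller and were not computed, so they do not show expression of every member in both classes. In podocytes they were 3.10 to 39.7 times in control, 1.75 to 8.62 in MRL/lpr and 1.38 to 9.83 in treated mice. For *Gbp3*, *Gbp4*, *Gbp5*, *Gbp6*, *Gbp7*, *Irgm1* and *Iigp1* podocytes had the lowest such ratio of the 3 classes in each library. *Igtp* was an exception, with 33.9 in control podocytes against 29.1 in endothelial and 20.4 in mesangial cells, and with 8.62 in podocytes against 6.50 in mesangial cells of MRL/lpr mice. *Gbp2* was another, with 9.83 in podocytes against 7.03 in endothelial cells of treated mice. *Iigp1* in podocytes of MRL/lpr mice, 115 CPM, compares with 57.8 CPM from free RNA at the median share. Endothelial markers stood in podocytes at 0.169, 0.183 and 0.177 of their level in empty droplets, above that share in each library. Free RNA read from them alone would give more than 57.8 CPM. How much of *Iigp1* or *Gbp5* in podocytes is free RNA was not tested.

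*Gbp2b*, which encodes the mouse protein also named GBP1, was counted in control mice and nearly absent from both MRL/lpr libraries. Over all cells there were 2786 UMIs in 2048 of 11018 control cells (18.6%), 34 UMIs in 34 of 14109 MRL/lpr cells (0.241%) and 75 UMIs in 69 of 16586 treated cells (0.416%). No MRL/lpr cell had more than 1 UMI and no treated cell more than 2, against up to 10 in a control cell. Endothelial cells had 1240 UMIs or 47.4 CPM (44.8 to 50.1) in control mice, 4 UMIs or 0.241 CPM (0.0656 to 0.616) in MRL/lpr and 1 UMI or 0.0513 CPM (0.0013 to 0.286) in treated mice. The control library is high and the MRL/lpr libraries lie apart from it, with a log2 ratio of MRL/lpr over control of -7.62 (-9.50 to -6.26). The same held in mesangial cells, where 523 UMIs in control stood against 13 in MRL/lpr and 42 in treated mice, and in podocytes, where 469 UMIs stood against 1 and 1.

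Among control classes *Gbp2b* was highest in mononuclear phagocytes, with 33 UMIs in 63 cells, 90.3 CPM (62.2 to 127), above endothelial cells by 0.93 (0.39 to 1.43) on the log2 scale. Phagocytes of MRL/lpr mice, with 1767 cells, had 11 UMIs and those of treated mice, with 2666 cells, had 6. In control podocytes it was 25.5 CPM (23.2 to 27.9), where the median share of free RNA would give 0.75. After every cell was thinned to 1000 UMIs at random, which left out none, 4.58% of control endothelial cells had a *Gbp2b* UMI (4.02% to 5.19%), against 19.2% before thinning. Before thinning, 4 of 3370 endothelial cells in MRL/lpr mice (0.119%) and 1 of 4655 in treated mice (0.0215%) had a UMI, and after thinning 0 did in either library. A count of 0 allows up to 0.0890% and 0.0644% by the limit of 3 cells, which covers cells with a UMI at 1000 UMIs and not cells that express the gene. In the treated library the mesangial cells held most of the few UMIs, with 2.86 CPM (2.06 to 3.87). The share of free RNA would give 0.223 CPM there, of 1.60 CPM (0.520 to 3.74, on 5 UMIs) in the empty droplets themselves.

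**Figure D2:**
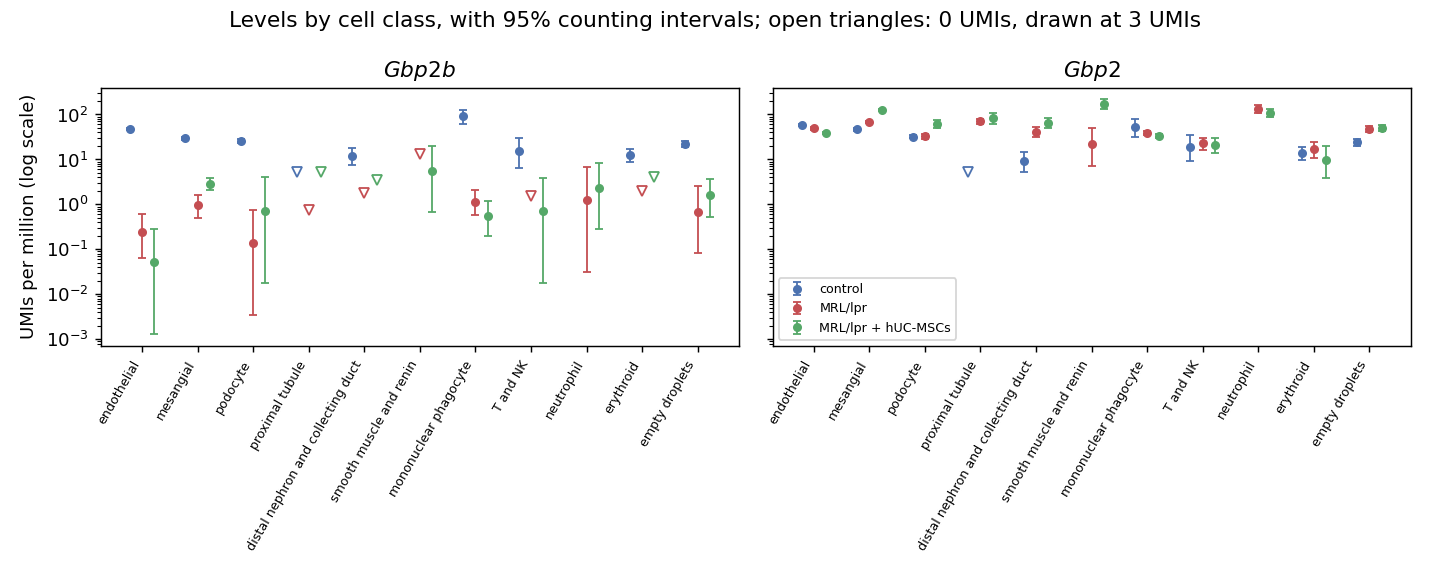
Level of *Gbp2b* (left) and of its neighbour *Gbp2* (right) in each cell class and in empty droplets, in CPM on a log axis, with points for the 3 libraries bars for 95% counting intervals, and open triangles for 0 UMIs, drawn at the level of 3 UMIs. *Gbp2b* is at 47.4 in control and 0.241 in MRL/lpr endothelial cells, while *Gbp2* is at 59.6 and 49.5.

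The 4 members next to *Gbp2b* on chromosome 3 did not share this pattern. In endothelial cells of control, MRL/lpr and treated mice *Gbp2* had 59.6, 49.5 and 38.7 CPM, *Gbp3* 103, 61.4 and 62.8, *Gbp7* 161, 124 and 94.3, and *Gbp5* 58.9, 131 and 63.9. Of 10259 genes with at least 100 UMIs in control endothelial cells, 6 were at or below 2% of the control level in both MRL/lpr libraries, which is 0.0585%. Besides *Gbp2b* these were *Zfp979*, *Gm28076*, *Themis*, *Tpm3-rs7* and *Gm11127*. The reverse pattern, a control level at or below 2% of that in both MRL/lpr libraries, was met by 14 of 9389 genes. The 5 genes most like *Gbp2b* over the 28 sums of a class in a library, by Pearson's r of log2(CPM + 1), were *Gm11127* (0.87), *Tpm3-rs7* (0.86), *Gm42743* (0.85), *H2-Q6* (0.85) and *Gm15478* (0.83), and the points share libraries and depth.

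The comparison of MRL/lpr with control mice asks how the glomerular cells differ in lupus nephritis. In endothelial cells *Gbp5*, *Gbp6* and *Igtp* were higher in MRL/lpr mice and the other 7 members lower. *Gbp5* had 58.9 CPM in control and 131 in MRL/lpr mice, a log2 ratio of 1.15 (1.06 to 1.25), *Gbp6* 0.94 (0.72 to 1.16) and *Igtp* 0.38 (0.27 to 0.48). *Irgm1* (-0.49), *Iigp1* (-0.48), *Gbp4* (-0.45), *Gbp7* (-0.38) and *Gbp2* (-0.27) were lower by less than *Gbp3*, at -0.75 (-0.86 to -0.65). With a stricter marker gate, described below, *Gbp2* was not lower. At least 2-fold higher was 1 of 10 members, where 11.5% of the 14758 genes with at least 20 UMIs were, and at least 2-fold lower was 1 of 10, *Gbp2b*, where 6.09% were. The median log2 ratio of the members was -0.42 and that of all genes 0.04. Since the rule used this contrast, nothing is read from the count.

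In mesangial cells the order differed. Depth differed too, with a median of 9915 UMIs per mesangial cell in control and 3717 in MRL/lpr mice. Endothelial cells had 4304 and 3840. The range of 200 to 3000 genes kept 516 of 1203 control and 1702 of 2189 MRL/lpr mesangial cells. Where that range or thinning moved the counts and medians is given below. *Gbp2* (0.54), *Gbp6* (0.66) and *Igtp* (0.35) were higher in MRL/lpr mice, *Gbp4* was not set apart (-0.11, interval -0.27 to 0.05), and *Gbp5*, higher in endothelial cells, was lower here with 159 CPM in control and 93.8 in MRL/lpr mice, a log2 ratio of -0.76 (-0.86 to -0.67). *Gbp3* was at -1.08 (-1.21 to -0.95), *Gbp7* at -0.92, *Iigp1* at -0.64 and *Irgm1* at -0.61. None of 10 members was at least 2-fold higher, against 13% of all genes, and 2 of 10, *Gbp2b* and *Gbp3*, were at least 2-fold lower, against 5.37%. The members' median was -0.62 and that of all genes 0.05.

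In podocytes, *Gbp5* went from 3.64 to 7.56 CPM (log2 ratio 1.06, 0.51 to 1.59) and *Gbp7* from 48.4 to 18.8 CPM (-1.36, on 891 and 137 UMIs). With *Gbp5* 1 of 10 members was at least 2-fold higher, against 10.5% of all genes, and with *Gbp2b* and *Gbp7* 2 of 10 at least 2-fold lower, against 5.72%. With free RNA subtracted at the median share the ratio of *Gbp5* was 0.49. *Iigp1* in podocytes was at -0.07 (-0.19 to 0.04), but at 2.15 when cells with over 3000 genes were left out.

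**Figure D3:**
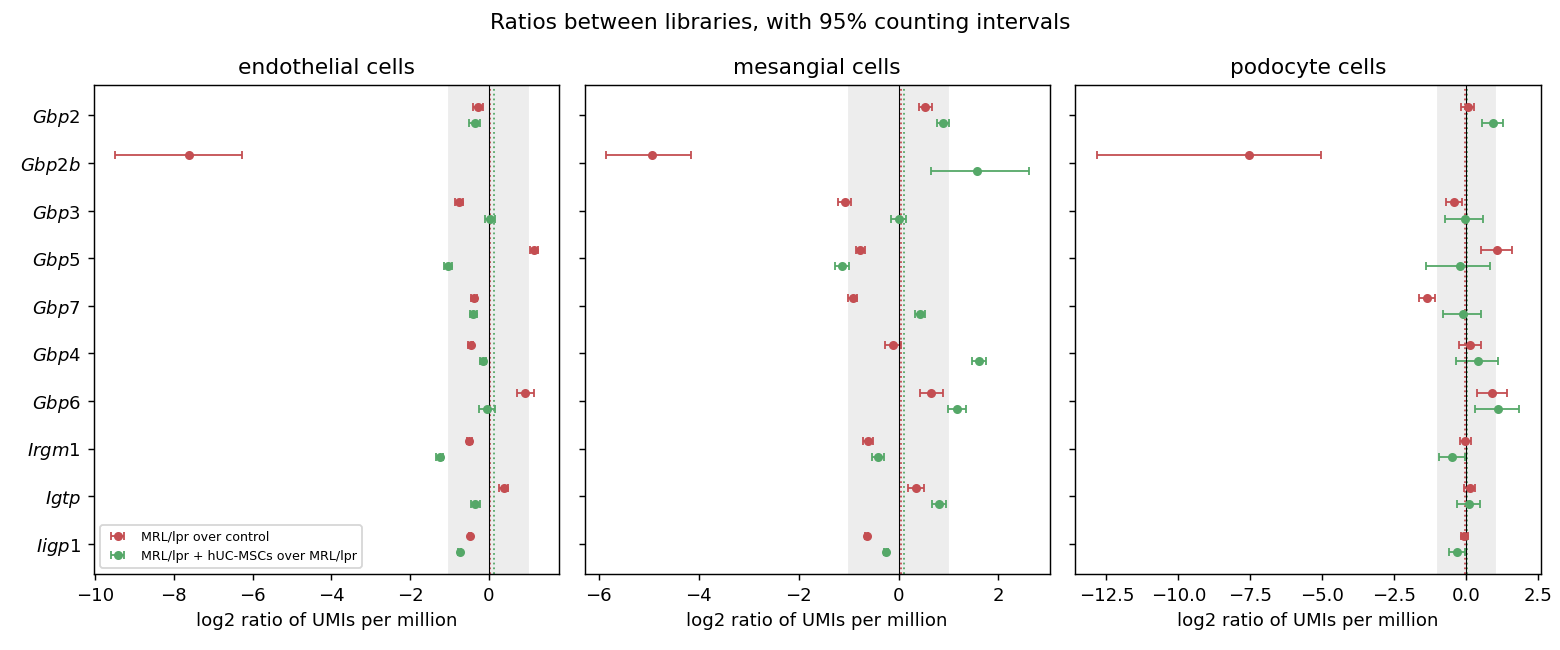
Log2 ratio of each member between libraries in endothelial, mesangial and podocyte cells, MRL/lpr over control in red and MRL/lpr + hUC-MSCs over MRL/lpr in green, with 95% counting intervals, the median of all genes as dotted lines and a grey band for less than 2-fold. *Gbp5* is at 1.15 in endothelial and -0.76 in mesangial cells in red, and *Gbp4* is at -0.13 and 1.61 in green.

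Outside the glomerular classes, the proximal tubule cells of MRL/lpr mice (666 cells, against 57 in control) had higher levels of *Gbp6* (81.1 against 14.2 CPM, log2 ratio 2.52, 1.52 to 3.74), *Igtp* (2.45, 1.59 to 3.46), *Irgm1* (1.47, 0.90 to 2.09) and *Iigp1* (353 against 136 CPM, 1.37, 1.04 to 1.72). *Gbp2* had 284 UMIs there and 0 in control, 3.72 higher on the log2 scale with the control set to 3 UMIs over the class, while the exact interval of the ratio begins at 3.41. *Gbp3* was lower, at -0.91 (-1.52 to -0.25). In the distal nephron and collecting duct (202 cells, against 123 in control) *Gbp6* (2.62, 1.08 to 4.61, on 24 and 4 UMIs), *Gbp5* (2.54, on 51 and 9), *Gbp2* (2.16, 1.37 to 3.05), *Gbp4* (1.52, 0.64 to 2.48) and *Iigp1* (0.80, 0.61 to 1.00) had higher levels in MRL/lpr mice. All 5 lay below the empty droplets of that library, with 14.1 against 30.9 CPM for *Gbp6*, 29.9 against 45.1 for *Gbp5*, 41.0 against 47.5 for *Gbp2*, 24.6 against 65.2 for *Gbp4* and 345 against 605 for *Iigp1*. In the proximal tubule *Gbp6*, *Igtp*, *Irgm1* and *Gbp2* lay above them and *Iigp1* below. The share of free RNA was estimated for the 3 glomerular classes alone, so its part in the values of this paragraph was not tested. In T and NK cells *Gbp3* was higher, at 1.57 (0.75 to 2.51, on 145 and 13 UMIs), and *Gbp4* (-1.59, -2.07 to -1.11) and *Gbp7* (-0.75, -1.29 to -0.19) were lower. Of these, *Gbp4* (43.3 against 65.2 CPM) and *Gbp7* (47.4 against 53.8) lay below the empty droplets in MRL/lpr mice, and *Gbp3* above them. In mononuclear phagocytes, of which control mice gave 63, most members were lower in MRL/lpr mice. Beside *Gbp2b*, *Gbp5* was at -2.67 (-3.20 to -2.10, on 149 and 36 UMIs), *Gbp4* at -1.94 (-2.64 to -1.17), *Gbp7* at -1.57, *Gbp3* at -1.56, *Irgm1* at -1.11 and *Iigp1* at -0.78 (-1.12 to -0.42), while the intervals of *Gbp2*, *Gbp6* and *Igtp* held 0. In phagocytes of MRL/lpr mice every member but *Gbp2b* lay below the empty droplets of that library. *Gbp5* had 15.5 against 45.1 CPM, *Gbp4* 13.5 against 65.2 and *Iigp1* 115 against 605. In control phagocytes *Gbp4* (52.0 against 77.2 CPM), *Igtp* (35.6 against 38.2), *Irgm1* (71.1 against 129) and *Iigp1* (197 against 721) lay below them and the others above.

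Genes of the same pathway were counted over whole lists by the same rule, and the shares of all genes at least 2-fold higher and lower stand beside the counts. In endothelial cells, where 11.5% of all genes were higher and 6.09% lower, 0 of 11 other interferon-inducible GTPases were higher and 2 lower, *Irgm2*, a regulator like *Irgm1* (262 CPM in control, 123 in MRL/lpr, log2 ratio -1.09, -1.16 to -1.02), and *Gbp10* (-1.57). Of 11 genes of interferon gamma signalling 1 was higher, *Ciita*, the activator of class II genes (2.01), and 0 lower. Of 11 interferon gamma targets 3 were higher and 0 lower, the chemokine *Cxcl9* (2.05), the checkpoint ligand *Cd274* (1.73, 1.65 to 1.80) and *Serping1*, an inhibitor of complement (2.26). Of 13 vacuole and inflammasome partners 2 were higher, *Nlrp3* (2.07, on 24 and 9 UMIs) and *Casp4* (1.05), and 1 lower, the adaptor *Pycard* (-1.22).

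In mesangial cells, where 13% of all genes were higher and 5.37% lower, 0 of the 11 other GTPases were higher and 1 lower, *Gbp10* (-1.97, on 7 and 36 UMIs). Of 11 signalling genes 2 were higher, *Ciita* (2.51) and *Irf8* (2.13), of 10 targets 2, *Cxcl9* (1.70) and *Cd274* (2.31), and of 13 partners 2, *Nlrp3* (3.64, on 38 and 4 UMIs) and *Casp1* (1.22), with 0 lower in the 3 lists. In podocytes, where 10.5% of all genes were higher and 5.72% lower, 5 of the 11 other GTPases were higher, *Gbp8* with 39 UMIs in control and 768 in MRL/lpr mice (5.64, 5.18 to 6.14), *Tgtp1* (1.40), *F830016B08Rik* (1.37), *Ifi47* (1.09) and *Gm12185* (1.04). *Gbp10* was lower there, with 20 UMIs in control and 0 in MRL/lpr mice. Of 10 signalling genes in podocytes 2 were higher, *Irf8* (2.02) and *Socs3* (1.92), of 9 targets 4, *Cd274* (2.02), *Psmb8* and *Psmb9* of the immunoproteasome (1.65 and 1.04) and *B2m* (1.01), and of 13 partners 4, *Aim2* (2.70, on 18 and 7 UMIs), *Nlrp3* (2.34, on 14 and 7), *Casp1* (2.08, on 15 and 9) and *Casp4* (1.60), with 0 lower in the 3 lists. The share of free RNA in podocytes was 3.35% in control and 9.56% in MRL/lpr mice. Ratios of list genes, here and for treated mice, were not recomputed with free RNA subtracted, so they are uncertain, also well past 2-fold. The 9 phagocyte markers summed to 99.9 CPM in empty droplets of control and 1878 in MRL/lpr mice. In podocytes they summed to 6.84 and 173 CPM, and in the other 2 classes they were higher in MRL/lpr mice as well. The part of RNA from leukocytes in these ratios was not tested.

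The comparison of treated with untreated MRL/lpr mice asks what differs after hUC-MSCs. In endothelial cells *Irgm1* was furthest below its untreated level among the 9 members with at least 20 UMIs. It had 234 CPM in MRL/lpr and 98.3 in treated mice, a log2 ratio of -1.25 (-1.33 to -1.17), *Gbp5* 131 and 63.9, at -1.03 (-1.14 to -0.93), and *Iigp1* 1751 and 1049, at -0.74 (-0.77 to -0.71). *Gbp7* (-0.39), *Gbp2* (-0.35), *Igtp* (-0.34) and *Gbp4* (-0.13) were lower by less. *Gbp3* (0.03) and *Gbp6* (-0.04) had intervals that hold 0. At least 2-fold higher were 0 of 9, against 7.3% of all genes, and at least 2-fold lower 2 of 9, *Irgm1* and *Gbp5*, against 4.38%. After thinning to 1000 UMIs per cell *Gbp5* was at -0.97. The members' median was -0.35 and that of all genes 0.13.

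In mesangial cells most members were higher in treated mice. *Gbp4* had 41.2 CPM in MRL/lpr and 126 in treated mice, a log2 ratio of 1.61 (1.47 to 1.75), *Gbp6* 24.96 and 56.1, at 1.17 (0.98 to 1.35), *Gbp2* 67.4 and 125, at 0.89 (0.78 to 1.01), and *Igtp* 45.7 and 80.1, at 0.81 (0.67 to 0.95). *Gbp7* was at 0.43, *Gbp3* at 0.00 (-0.15 to 0.15), *Iigp1* at -0.25, *Irgm1* at -0.41 and *Gbp5* at -1.13 (-1.27 to -0.99). *Gbp2b*, with 13 and 42 UMIs, was at 1.58 (0.65 to 2.60). At least 2-fold higher were 3 of 10, *Gbp4*, *Gbp6* and *Gbp2b*, against 4.29% of all genes, and at least 2-fold lower 1 of 10, *Gbp5*, against 6.14%. After thinning *Gbp4* alone was still 2-fold higher, with *Gbp6* at 0.60, and with 200 to 3000 genes per cell *Gbp5* was at -0.72 and 0 members were 2-fold lower. The members' median was 0.62 and that of all genes 0.11. *Gbp5* was thus lower in treated mice in both classes, while *Gbp2*, *Gbp4*, *Gbp7* and *Igtp* were lower in endothelial and higher in mesangial cells.

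In podocytes of treated mice, of which there were 203, *Gbp2* was higher (33.0 and 62.2 CPM, log2 ratio 0.92, 0.54 to 1.28) and so was *Gbp6* (7.42 and 15.9 CPM, the latter on 22 UMIs), while *Irgm1* (-0.49, -0.96 to -0.05) and *Iigp1* (-0.33, -0.61 to -0.06) were lower. This made 1 of 9 members at least 2-fold higher, against 4.26%, and 0 of 9 at least 2-fold lower, against 4.46%. With a stricter marker gate, 1.5 times the marker share a class asks for and 0.5 times that allowed for another class, 0 were higher. T and NK cells had 46.9 CPM of *Irgm1* in MRL/lpr and 17.6 in treated mice, at -1.42 (-2.12 to -0.77). Both levels lay below the empty droplets of their libraries, at 86.8 and 65.6 CPM. *Gbp4*, also below them, was higher in this class in treated mice, at 0.48 (0.03 to 0.93). In mononuclear phagocytes *Irgm1* was at -0.13 (-0.36 to 0.09). *Gbp3* (-0.43, -0.76 to -0.10), *Gbp5* (-0.37, -0.72 to -0.03) and *Iigp1* (-0.21, -0.33 to -0.09) were lower there, all below the empty droplets of both libraries. Other classes held members that were higher in treated mice. In smooth muscle and renin cells (70 cells, against 63 in untreated mice) these were *Gbp2* (2.97, 1.66 to 4.64, on 60 and 5 UMIs), *Gbp6* (2.19, 0.45 to 4.58, on 21 and 3), *Gbp4* (2.03, 0.49 to 4.01, on 25 and 4), *Igtp* (1.38, 0.15 to 2.82) and *Iigp1* (1.22, 0.76 to 1.70), with *Gbp5* at 21 UMIs against 0. In treated mice *Gbp4* (70.4 against 93.2 CPM) and *Iigp1* (504 against 524) lay below the empty droplets in that class. *Iigp1* was also higher in the distal nephron and collecting duct (0.55, 0.37 to 0.73), as were *Gbp2* (0.69) and *Igtp* (0.65), and in neutrophils (0.57, 0.34 to 0.80). In both classes *Iigp1* lay below the empty droplets, which had 605 CPM in MRL/lpr and 524 in treated mice. Its levels were 345 and 504 CPM in the distal nephron and collecting duct and 321 and 476 in neutrophils. In the proximal tubule *Igtp* (-0.63, -1.15 to -0.16) and *Irgm1* (-0.45, -0.89 to -0.04) were lower, and in T and NK cells *Iigp1* (-0.45, -0.74 to -0.17). *Iigp1* in T and NK cells had 155 and 113 CPM, below the 605 and 524 of the empty droplets. The part of free RNA in the classes outside the glomerular ones was not tested.

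Marker levels within the classes and signs of handling also differed between the libraries, not all in 1 direction. Of the 7 mesangial markers, *Sfrp2* had 1634, 556 and 324 CPM in mesangial cells of control, MRL/lpr and treated mice, *Itga8* 933, 713 and 486, and *Gata3* was lower in both MRL/lpr libraries with 418, 209 and 270. *Pdgfrb* (233, 252 and 321), *Agtr1a* (278, 330 and 502) and *Serpine2* (3027, 4019 and 4014) were higher there, and *Ptn* had 2502, 2473 and 2383. The 6 smooth muscle and renin markers summed to 40.1, 213 and 370 CPM in mesangial cells, with 5, 6 and 6 of the 6 counted. *Col3a1*, a fibroblast collagen, had 2.36, 32.7 and 167 CPM there and *Mgp* 578, 1423 and 2123, and the 9 phagocyte markers summed to 14.5, 275 and 497 CPM, with 8, 9 and 9 counted. Of the 8 endothelial markers, *Ehd3*, a marker of the glomerular capillary, had 1668, 1154 and 921 CPM in endothelial cells and *Flt1* 780, 733 and 635, while *Pecam1* (430, 615 and 768), *Cdh5* (448, 628 and 694) and *Plvap* (30.7, 48.9 and 98.5) went up over the libraries in that order. *Kdr* (995, 1213 and 1101), *Egfl7* (1666, 1628 and 1966) and *Emcn* (3511, 2848 and 3330) had no such order. The 9 phagocyte markers, all counted in all 3 libraries of endothelial cells, summed there to 7.10, 168 and 375 CPM. In the same cells the mesangial markers summed to 274, 657 and 618 CPM and the T and NK markers to 4.58, 37.1 and 26.0. *Mgp* had 7.48, 44.8 and 87.0 CPM there and *Acta2* 13.2, 19.6 and 44.6, while the erythroid markers were lower in both MRL/lpr libraries, with 979, 496 and 507. Of 3 genes that respond to handling, *Jun* had 6945, 4287 and 1700 CPM and *Hspa1a* 6933, 3765 and 2197 CPM in endothelial cells, in the same order of libraries as *Iigp1* and *Irgm1*, but *Fos* had 7004, 7265 and 3382. In mesangial cells *Jun* had 4216, 2267 and 663 CPM, *Fos* 8662, 5983 and 2480, and *Hspa1a* 6992, 1472 and 1591. Ribosomal UMIs were 10.2%, 13.3% and 14.0% in endothelial cells. In podocytes, *Nphs1* had 3456, 1630 and 1428 CPM and *Thsd7a* 1524, 603 and 430, while *Podxl* had 1883, 2815 and 3105. *Hspa1a* had 1917, 566 and 600 CPM there, *Jun* 1687, 1864 and 694, *Fos* 1850, 3857 and 1711, and *Acta2*, of smooth muscle, 1.90, 3.57 and 27.5. *Mgp* had 6.52 and 30.4 CPM in podocytes of control and MRL/lpr mice and was higher still in treated mice. The phagocyte markers summed to 6.84, 173 and 323 CPM in podocytes, with 8, 9 and 9 of the 9 counted. The part of these values in the results was not tested. Among endothelial cells with an *Ehd3* UMI and mesangial cells with an *Itga8* UMI, an alternative chosen after the data were seen, the same members were past 2-fold in the same direction in both comparisons. That filter removed few cells in some libraries, since it kept 4950 of 5047, 3144 of 3370 and 3906 of 4655 endothelial and 1156 of 1203, 1781 of 2189 and 1583 of 2344 mesangial cells.

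In the lists, the transcription factor *Irf1*, which acts upstream of many members, was at -1.97 (-2.01 to -1.93) in endothelial and -2.19 (-2.25 to -2.14) in mesangial cells of treated against untreated mice. *Socs1* (-1.46 and -1.25) and *Socs3* (-1.45 and -1.81), feedback inhibitors of cytokine signalling, were lower as well, so that 3 of 11 genes of interferon gamma signalling were at least 2-fold lower and 0 higher in each class. Of all genes 4.38% were lower and 7.3% higher in endothelial cells, and 6.14% lower and 4.29% higher in mesangial cells. Of 11 targets *Cxcl10* (-1.85) and *Parp14* (-1.14) were lower and *Cxcl9* higher (1.31) in endothelial cells, and *Cxcl9* alone was higher in mesangial cells, with 17.9 CPM in MRL/lpr and 163 in treated mice (3.18, 2.99 to 3.38). Of the 11 other interferon-inducible GTPases 0 were higher or lower in endothelial cells, and 3 were higher and 0 lower in mesangial cells, *Gbp8* (1.41), *Gbp9* (1.09) and *Gbp10* (1.25, on 18 and 7 UMIs, with an interval that holds 0). Of 13 vacuole and inflammasome partners 1 was higher in endothelial cells, *Nlrp3* (1.19), and 0 in mesangial cells, with 0 lower in either. In podocytes, where 4.26% of all genes were higher and 4.46% lower, 2 of 9 other GTPases were higher, *Gbp9* (1.55, on 10 and 18 UMIs) and *Ifi47* (1.07), 1 of 9 targets, *Serping1* (1.75), and 2 of 12 partners, *Aim2* (2.03, on 14 and 18 UMIs) and *Casp1* (1.07, on 6 and 15 UMIs, with an interval that holds 0). *Irf1* was the 1 of 10 signalling genes lower in podocytes (-1.16).

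After thinning to 1000 UMIs, 84.0%, 82.8% and 67.6% of endothelial cells in control, MRL/lpr and treated mice had at least 1 UMI of any member, with *Gbp2b* among them. In mesangial cells the share with any member was 77.0%, 67.4% and 68.3%, and in podocytes 20.6%, 21.6% and 23.6%. *Irgm1* was seen in 24.4%, 19.7% and 9.11% of endothelial cells, and *Gbp5* in 4.26%, 10.4% and 5.18%. In mesangial cells *Gbp4* was seen in 3.49%, 3.75% and 11.3% and *Gbp5* in 10.8%, 7.58% and 4.01%.

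Endothelial cells were also divided by whether they held a UMI of *Cxcl10*, an interferon gamma-induced chemokine on which the study centres, after thinning. There were 750 of 5047 such cells in control, 696 of 3370 in MRL/lpr and 357 of 4655 in treated mice. *Gbp5* was higher in the cells with *Cxcl10* in each library, by 1.44 (1.03 to 1.85), 0.85 (0.53 to 1.17) and 1.07 (0.55 to 1.56) on the log2 scale, and so was *Iigp1*, by 0.80, 0.24 and 0.39. *Irgm1* was higher by 0.77 (0.60 to 0.95) and 0.55 (0.32 to 0.78), and in treated mice by 0.29 with an interval of -0.21 to 0.74. *Gbp2b* in control cells was higher by 1.00 (0.56 to 1.42). In treated mice *Gbp2* was higher by 1.22 (0.56 to 1.84, on 26 and 134 UMIs), with an interval that overlaps that of *Gbp5*. *Gbp7* was at -0.36 there, and its interval and those of *Gbp3*, *Gbp4*, *Gbp6* and *Igtp* held 0. In MRL/lpr mice *Gbp4* (0.48), *Igtp* (0.47) and *Gbp7* (0.44) were higher, and the intervals of *Gbp2*, *Gbp3* and *Gbp6* held 0. In control mice *Gbp2* (0.49), *Igtp* (0.44), *Gbp3* (0.44) and *Gbp7* (0.37) were higher, and the intervals of *Gbp4* and *Gbp6* held 0. Other interferon-induced genes were higher in the cells with *Cxcl10* too, *Ifit1* by 1.21, 0.88 and 0.81, *Isg15* by 0.93, 0.72 and 0.84 and *Irf1* by 0.83, 0.61 and 0.87 in control, MRL/lpr and treated mice. The endothelial gene *Kdr* was at 0.00, -0.12 and -0.09, and the median of all genes at -0.11, -0.07 and -0.07. The cells of a library are not replicates, and these are differences within 1 library.

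**Figure D4:**
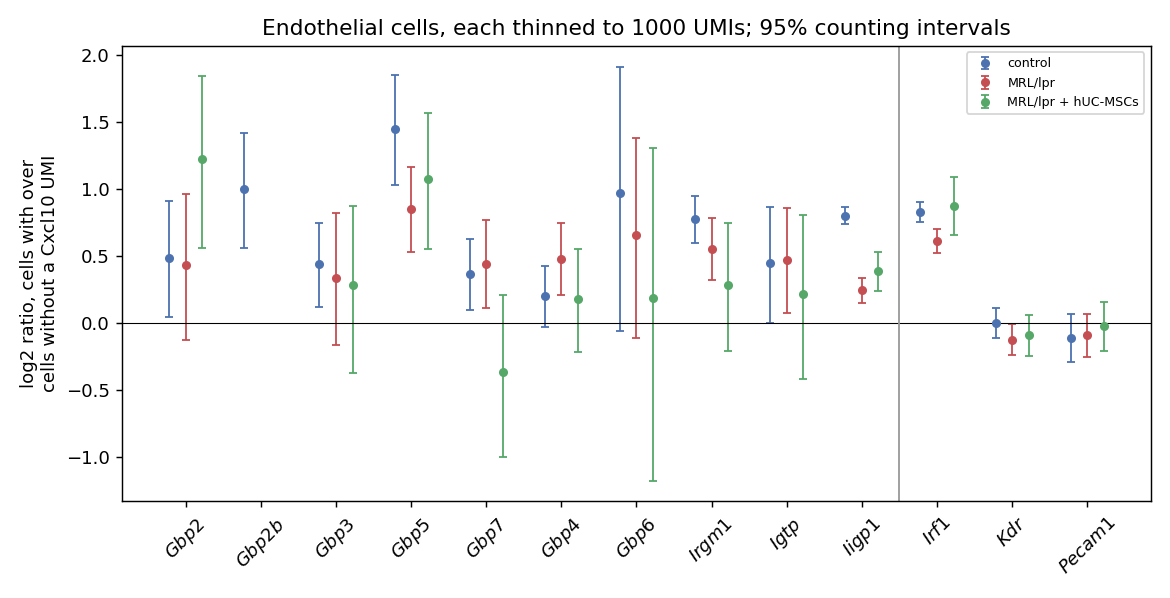
Log2 ratio of each member, and of *Irf1*, *Kdr* and *Pecam1* for comparison, between endothelial cells with and without a *Cxcl10* UMI in the 3 libraries, after thinning to 1000 UMIs per cell, with 95% counting intervals. *Gbp5* is at 1.44, 0.85 and 1.07 and *Kdr* at 0.00, -0.12 and -0.09 in control, MRL/lpr and treated mice.

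Divided by an *Ehd3* UMI, the members differed in control mice, where *Gbp6* (-1.53, -2.38 to -0.67, on 28 and 23 UMIs), *Gbp2b* (-0.70), *Gbp5* (-0.62) and *Igtp* (-0.54) were lower in cells with *Ehd3*, as were *Gbp4* (-0.20) and *Iigp1* (-0.16) by less. In MRL/lpr mice all 9 intervals held 0. In treated mice *Gbp3* (-0.64) and *Gbp5* (-0.51, -0.87 to -0.16) were lower in cells with *Ehd3*. Of other interferon-induced genes, *Isg15* (-0.27, -0.34 to -0.20) and *Irf1* (-0.18, -0.25 to -0.11) were lower too in control mice. In treated mice *Isg15* was lower (-0.30, -0.50 to -0.11). The intervals of *Ifit1* in every library, of *Irf1* in both MRL/lpr libraries and of *Isg15* in untreated MRL/lpr mice held 0. The median of all genes was 0.02, 0.01 and 0.03 in control, MRL/lpr and treated mice.

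Over the 28 sums of a class in a library, the 45 pairs of members had correlations of log2(CPM + 1) from -0.28 (*Gbp2b* with *Gbp6*) to 0.82 (*Iigp1* with *Irgm1*), with a median of 0.40. The genes most like the mean of the members were *Ppp3ca* (r = 0.84), *Tshz3* (0.84), *Lgals9* (0.82), *Stat2* (0.82) and *Sav1* (0.81) of 14303 ranked. *Stat2* encodes a transcription factor of the type I interferon response. The sums share 3 libraries and differ in depth, so these values are descriptions.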

How the data were processed

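The UMI counts deposited by the authors hold every gene and barcode before cells were called. Per the file headers they come from Cell Ranger 4, while the methods name another version, and the submitters' processing notes add STAR and mm10. Of 32285 gene IDs 32158 were found in GENCODE M21. The members and lists were chosen with earlier results of these data known. Named genes are by rule all members, the list genes past 2-fold and the 5 most alike genes. Class markers, handling genes, genes with the pattern of *Gbp2b* and those set beside the *Cxcl10* division were added outside that rule, after their values were seen. *Gbp11*, *Gm12250*, *Mx1* and *Mx2* of the lists were not analysed here.

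A barcode entered a class with at least 3 UMIs from at least 2 of its markers and a marker share of at least 0.3% and 2 times the highest share in empty droplets. A barcode also past another class was left out, which stands in for a doublet caller. Counts were summed per class and library and divided by the class total. Ratios carry exact conditional binomial intervals and levels exact Poisson intervals. Ratios were taken for genes with 20 or more UMIs in the pair of libraries, and a group at 0 was set to 3 UMIs. The ratio and its interval were tested on simulated Poisson counts of endothelial sums. Those hold counting error alone, which the interval assumes too. Thinning was checked on control cells. The marker gate and the share of free RNA were not tested in this way. Tools were scipy 1.17.1 and numpy 2.4.6, with pandas 2.3.3 and matplotlib 3.10.9 under Python 3.11.15.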

Additional observations from a re-analysis of the deposited data

Results flagged for a closer look

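Some members had log2 ratios on opposite sides of 0 in 2 cell classes under the same comparison, each with a counting interval on its side. With 1 library per condition the difference between classes was not tested. For MRL/lpr over control, *Gbp5* differed by 1.91 between endothelial and mesangial cells (1.15 and -0.76) and by -1.82 between mesangial cells and podocytes (-0.76 and 1.06). With free RNA subtracted at the median share the podocyte ratio was 0.49. The *Gbp5* level in podocytes of MRL/lpr mice was 1.75 times what that share would give. *Gbp2* differed by -0.81 between endothelial and mesangial cells (-0.27 and 0.54), and with a stricter marker gate its endothelial ratio was 0.02. For MRL/lpr + hUC-MSCs over MRL/lpr, the endothelial ratio minus the mesangial one was -1.74 for *Gbp4* (-0.13 and 1.61), -1.25 for *Gbp2* (-0.35 and 0.89), -1.15 for *Igtp* (-0.34 and 0.81) and -0.82 for *Gbp7* (-0.39 and 0.43). *Gbp2* also differed by -1.27 between endothelial cells and podocytes (-0.35 and 0.92).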

How the results depend on the processing

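The results in endothelial cells, mesangial cells and podocytes were recomputed with at least 2000 or 500 UMIs, at most 5% mitochondrial UMIs, 200 to 3000 genes, at most 5% ribosomal UMIs, a stricter marker gate, free RNA subtracted, ratios centred on the median of all genes, cells thinned to 1000 UMIs, and, chosen after seeing the data, endothelial cells with an *Ehd3* and mesangial cells with an *Itga8* UMI. The ratios in other classes were not recomputed. Of 513 member ratios in the 3 classes 393 stayed within the counting interval of the reported value, 120 left it and 30 had the opposite sign, none of them for a ratio past 2-fold in these classes, and of 123 values for the 14 such ratios 118 were still past it. For MRL/lpr over control, the median of the members in mesangial cells was -0.39 with 200 to 3000 genes, -0.84 with at most 5% ribosomal UMIs and -0.89 with the stricter gate, and in endothelial cells -0.14 with the stricter gate. Members at least 2-fold higher in endothelial cells were 2 with the stricter gate and 2 after thinning, where *Gbp6* joined *Gbp5*, and 1 in mesangial cells after thinning. Members at least 2-fold lower in mesangial cells were 4 with at most 5% ribosomal UMIs. For treated over untreated mice, the median in endothelial cells was -0.52 with the stricter gate and in mesangial cells 0.31 after thinning. Members at least 2-fold higher in mesangial cells were 5 with the stricter gate and 1, *Gbp4*, after thinning. At least 2-fold lower were 0 in mesangial cells with 200 to 3000 genes, where *Gbp5* was at -0.72, and 1 in endothelial cells after thinning, where *Gbp5* was at -0.97. The share of all genes past 2-fold was not computed under the alternatives, so nothing is read from these counts of members. The cause of these moves was not tested.

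With at most 5% ribosomal UMIs fewer than 50 endothelial cells or podocytes were left in a library of each comparison, so neither class gives a value there. No paired analysis was possible because each condition has 1 library. The 34 and 75 UMIs of *Gbp2b* over all cells of the MRL/lpr libraries leave most classes without an order, and few cells limit the podocytes of treated mice and the tubule classes.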
